A study of Mus musculus with 176 samples.

Results

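The genes described here are 7 genes of cytotoxic granules, *Gzma*, *Gzmb*, *Gzmk*, *Prf1*, *Srgn*, *Nkg7* and *Ctsw*, of the 53546 gene names in the count table. They were picked by name, with *Gzmb* already known to be high in cells that bound the P6:I-Ab tetramer, so its difference between tetramer-positive and tetramer-negative cells is a description. Their reads were followed in single CD4 T cells sorted by binding of this tetramer, and in cells with 10 or more *Foxp3* reads (Foxp3-high) or fewer (Foxp3-low). All 7 names were found in the table.

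The mice were females of the inbred strain C57BL/6J. They received P6, a peptide of apolipoprotein B, in complete Freund's adjuvant at 7 weeks of age and in incomplete adjuvant at 9 weeks, and their draining lymph nodes were taken at 11 weeks. Both groups carried this treatment, and no unimmunized group was analysed here. P6+ cells bound the tetramer in both of its fluorescent forms, and P6- cells were antigen-experienced CD4 T cells that did not bind it. The gate required TCRβ and CD4, high CD44 and no CD62L, and cells stained for markers that included CD8, NK1.1, CD11c, F4/80, CD11b, TER-119 and CD45R had been depleted, a depletion directed at other lymphocytes and myeloid cells. All P6+ cells came from 1 mouse. The methods describe P6- cells as sorted from another portion of the same sample, and the labels name no animals, so each group counts as 1 sample and no test between groups was made. Each well held 1 sorted cell, and full-length cDNA was sequenced by Smart-Seq2, which has no molecular identifiers.

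After limits of 500000 reads, 2000 genes and 10% mitochondrial reads, 161 cells were kept, among them all 32 P6+ cells. The 15 cells that failed were P6-. A median of 1731608 reads and 4396 genes was counted per passing P6+ cell, against 1500457 reads and 3432 genes per passing P6- cell. Among the P6+ cells 11 were Foxp3-high and 21 Foxp3-low, and the passing P6- cells, all that follow, were 19 Foxp3-high and 110 Foxp3-low cells. The *Foxp3* reads closest to the limit were 22 above and 4 below it in P6+ cells, and 37 above and 2 below it in P6- cells. All 32 P6+ cells and all but 7 P6- cells had 10 or more reads of at least 1 of 6 CD4 T cell genes. Of 7 NK cell genes, *Eomes* was held by 2 P6- cells, with a list sum of up to 606 cpm, and no P6+ cell held any, where 6 of the 7 were at 0. *Ncr1*, *Tyrobp* and *Fcer1g* were at 0 reads in all 161 cells. Of 2 CD8 T cell genes, *Cd8b1* was held by 2 P6- cells, with a list sum of up to 1357 cpm, no cell held *Cd8a*, and both were at 0 in P6+ cells. The prefix of a cell's name is called its plate here, a reading that the labels do not state. All P6+ cells bore 1 of 8 such prefixes, together with 11 passing P6- cells. Tetramer binding and plate can thus be told apart only through these 11 cells.

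Cytotoxic lymphocytes store their killing proteins in secretory granules. Perforin (*Prf1*) forms pores in the membrane of a target cell, through which the serine proteases called granzymes enter and start cell death, with granzyme B cleaving caspases and their substrates. Serglycin (*Srgn*) is the proteoglycan core on which granzymes and perforin are packed, *Nkg7* encodes a granule membrane protein, and *Ctsw* encodes cathepsin W, a cysteine protease of cytotoxic cells. These proteins are best known from CD8 T cells and NK cells, but activated CD4 T cells and regulatory T cells can also make granzyme B.

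The genes lie in several places of the mouse genome (build GRCm38, GENCODE annotation). *Gzmb* (ENSMUSG00000015437) spans chr14:56258838-56262260 on the minus strand at the edge of a cluster of 7 granzyme genes over 144.6 kb, and *Gzma* (chr13:113093825-113100981) and *Gzmk* (chr13:113171608-113225908) share a second locus. *Prf1* (chr10:61297833-61304680) and *Srgn* (chr10:62493833-62527451) are on chromosome 10, *Nkg7* is at chr7:43437073-43438249, and *Ctsw* at chr19:5465043-5468507. *Ctsw* ends within *Fibp* and *Gzmk* holds *Esm1*, both on the opposite strand.

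Sequence before the start of 4 of these genes is shown because it is what RefSeq gives for the control region of a gene on in part of the cells (*Gzmb*, *Nkg7*), on in most (*Srgn*) and nearly silent (*Prf1*). Each run is 250 bases upstream of the RefSeq start, 5′ to 3′ on the strand of the gene in GRCm38.p6. RefSeq windows were given for 6 of the 7 members, and *Ctsw* was not matched. Capitals mark exact matches, on either strand, to 5 motifs chosen with the sequences in view.
*Gzmb* (chr14:56262335-56262584, minus strand): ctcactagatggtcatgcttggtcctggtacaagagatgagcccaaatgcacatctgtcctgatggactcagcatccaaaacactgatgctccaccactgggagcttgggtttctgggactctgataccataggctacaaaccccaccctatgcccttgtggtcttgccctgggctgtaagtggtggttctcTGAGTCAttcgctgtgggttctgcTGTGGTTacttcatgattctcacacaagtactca
*Nkg7* (chr7:43436888-43437137, plus strand): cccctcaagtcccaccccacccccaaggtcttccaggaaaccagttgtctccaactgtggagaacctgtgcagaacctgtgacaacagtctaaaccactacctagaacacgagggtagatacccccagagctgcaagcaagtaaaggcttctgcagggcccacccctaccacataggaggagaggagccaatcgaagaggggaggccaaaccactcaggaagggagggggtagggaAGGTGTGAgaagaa
*Srgn* (chr10:62527446-62527695, minus strand): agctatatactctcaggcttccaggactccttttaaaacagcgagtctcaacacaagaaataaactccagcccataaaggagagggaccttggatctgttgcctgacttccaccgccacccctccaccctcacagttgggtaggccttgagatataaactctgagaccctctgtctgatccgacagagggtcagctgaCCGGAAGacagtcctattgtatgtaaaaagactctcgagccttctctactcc
*Prf1* (chr10:61297586-61297835, plus strand): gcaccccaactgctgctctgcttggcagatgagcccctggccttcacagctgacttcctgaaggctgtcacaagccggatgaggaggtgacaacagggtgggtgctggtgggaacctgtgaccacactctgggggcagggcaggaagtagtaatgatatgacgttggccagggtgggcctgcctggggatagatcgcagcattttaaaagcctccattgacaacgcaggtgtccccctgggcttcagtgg

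In the *Gzmb* window the AP-1 letters TGAGTCA began at position 193 and the Runx letters TGTGGTT at position 217, counted from 1 at the 5′ end, and the CRE letters GACGTCA at position 254, just past the start. AP-1 letters were held by 5.20% of 32851 mouse windows of 300 bases, Runx letters by 5.27% and CRE letters by 3.21%. The T-box letters AGGTGTGA (1.28% of windows) were found in *Nkg7*, and the Ets letters CCGGAAG (8.86% of windows) at 2 places in *Srgn*, the second past the start. No matches overlapped each other. The *Gzma* window held 1 Runx match, read on the opposite strand, and those of *Prf1* and *Gzmk* held 0 of the 5 motifs. The RefSeq start of *Gzmb* lies 74 bases from the GENCODE start, and that of *Gzmk* 44943 bases from it. A match is a run of letters and not a measured binding site.

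By its reads, *Gzmb* was either abundant or nearly absent in a cell. It had 623 to 8737 reads in 14 of 32 P6+ cells and 0 to 6 reads in the other 18, with no cell between. That is 43.8% of P6+ cells (exact 95% binomial interval 26.4 to 62.3%), where 10 or more reads count as holding the gene. Of the P6- cells, 8 held 563 to 13778 reads (6.20%, interval 2.72 to 11.9%) and every other one had at most 4. The intervals cover counting error only, since amplified reads are not independent molecules, and they treat the cells of 1 mouse as if drawn at random. The study reports expanded clones among the P6+ cells, and cells of the same clone are not independent draws either. Transcripts that were not captured leave no reads, so few or no reads do not show that a cell lacked them. This limit also holds for the other members and for *Foxp3*.

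**Figure D1:**
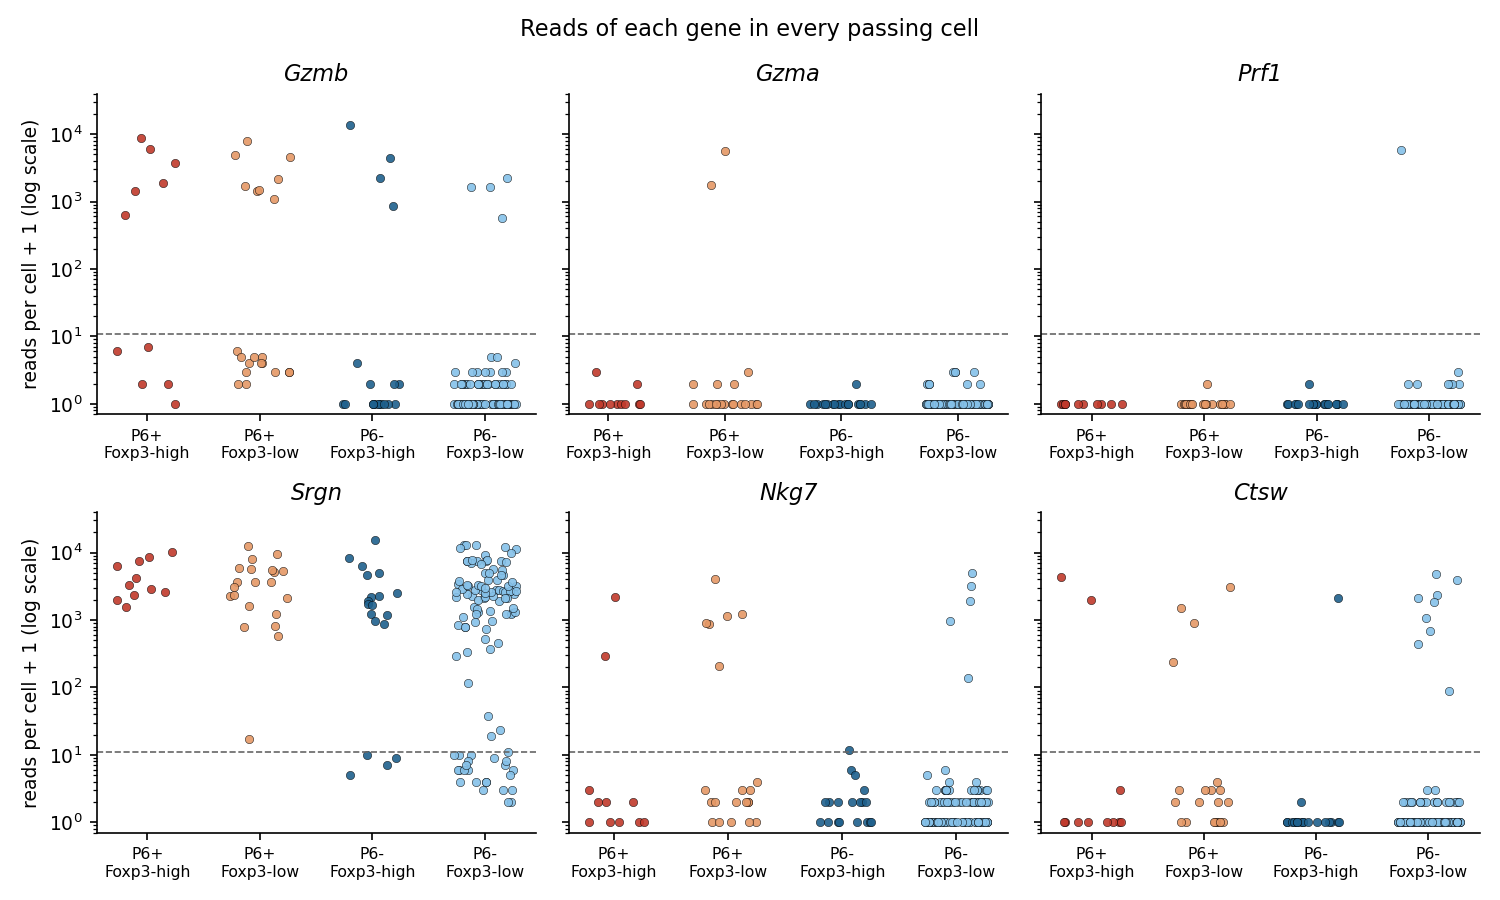
Reads per cell plus 1 (log axis) of 6 genes in each of the 161 passing cells, by tetramer binding and *Foxp3* reads. Each point is a cell, points are spread sideways at random, and the dashed line is at 10 reads. *Gzmb* points form an upper band above 500 reads and a lower band under 10, *Srgn* is high in most cells of every group, and *Gzma* and *Prf1* leave the floor in 2 cells and 1 cell.

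Among cells that held *Gzmb* the levels of the tetramer groups overlapped. Reads per 1000000 reads of the cell (cpm) ran from 378 to 5244 with a median of 1443 in the 14 P6+ cells, and from 289 to 11108 with a median of 1376 in the 8 P6- cells. The whole P6+ range lay within the P6- range. Pooled over all cells of a group, *Gzmb* was at 802 cpm in P6+ (exact 95% Poisson interval 795 to 809) and 133.97 cpm in P6- cells (132.4 to 135.6), a log2 ratio of 2.57 with 1 cpm added. A single P6- cell held 50.4% of the P6- reads, and without the top cell of each group the log2 ratio was 3.31.

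On the shared plate the contrast was wider. None of the 11 P6- cells there held *Gzmb*, which allows a share of up to 27.3%, and their highest count was 3 reads. Pooled, these cells were at 0.583 cpm (9 reads), and the log2 ratio of P6+ cells over them was 8.99. P6- cells with *Gzmb* came from 5 of the other prefixes, with 3 of 12 cells on plate 2, 2 of 14 on plate 9 and 1 each on plates 3, 7 and 8. No P6- cell held it on plates 4 and 5, where 20 and 16 cells passed.

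Counts of 1 to 9 reads of *Gzmb* were seen in 17 of 32 P6+ cells and in 6 of 11 P6- cells on the same plate, against 26.3% of P6- cells on other plates. The other plates were uneven, from 1 of 12 cells on plate 7 to 12 of 20 on plate 8. Whether such low counts come from the cell itself was not tested. At a limit of 1 read, 96.9% of P6+ and 34.9% of P6- cells would hold the gene. Thinning every cell to 500000 reads left 14 P6+ and 8 P6- cells with *Gzmb*. Among the 15 cells that failed the quality limits, 0 held 10 or more reads.

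**Figure D2:**
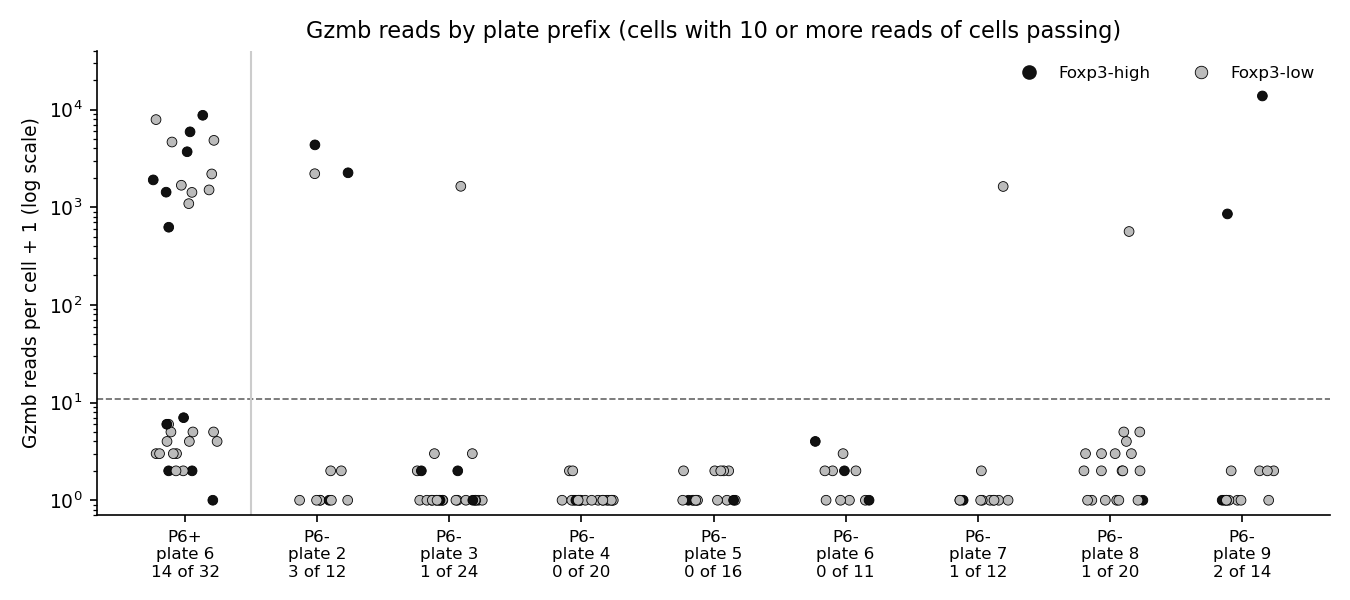
*Gzmb* reads per cell plus 1 (log axis) by plate prefix, with black points for Foxp3-high and grey points for Foxp3-low cells and the dashed line at 10 reads. Numbers under each column give the cells with 10 or more reads of those passing, 14 of 32 for P6+ cells and 0 of 11 for P6- cells of the same plate.

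*Foxp3* encodes the transcription factor that defines regulatory T cells, and *Gzmb* was found on both sides of the *Foxp3* limit. Foxp3-low cells of the tetramer groups also differed in other regulatory T cell markers. The summed level of *Foxp3*, *Il2ra*, *Ctla4*, *Ikzf2* and *Tnfrsf18* had a median of 1207 cpm (2.59 to 4128) in Foxp3-low P6+ and 231 cpm (0.503 to 6227) in Foxp3-low P6- cells. At least 1 of the 5 was held by 18 of 21 and 66 of 110 of these cells, and the part of these markers in the *Gzmb* values was not tested. In Foxp3-high cells the median was 3160 cpm in P6+ and 3360 cpm in P6- cells. *Gzmb* was held by 6 of 11 Foxp3-high P6+ cells (54.5%, interval 23.4 to 83.3%) and 8 of 21 Foxp3-low P6+ cells (38.1%, 18.1 to 61.6%). In P6- cells it was held by 4 of 19 Foxp3-high (21.1%, 6.05 to 45.6%) and 4 of 110 Foxp3-low cells (3.64%, 1.0 to 9.05%). In this order of shares each neighbouring pair of intervals overlapped.

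Per cell, the Foxp3-high P6+ cells ran from 0 to 5244 cpm with a median of 378, the only one of the 4 groups whose median cell held the gene. The Foxp3-low P6+ cells ran from 0.453 to 2705 cpm with a median of 2.40. Both P6- groups had a median of 0, with a highest cell of 11108 cpm among Foxp3-high and 1506 cpm among Foxp3-low cells. All 4 ranges overlapped.

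Pooled *Gzmb* was 1227 cpm in Foxp3-high and 614 cpm in Foxp3-low P6+ cells, a log2 ratio of 0.996. The ratio was 0.34 when a single *Foxp3* read was enough for the Foxp3-high group, and 0.55 when 50 were required. Among P6- cells it was 719 cpm in Foxp3-high and 34.9 cpm in Foxp3-low cells, a log2 ratio of 4.33. That ratio rested in part on P6- cell 130, whose 13778 reads were 64.9% of the group's, and it was 3.50 without the top cell of each group and 2.90 at a limit of 1 *Foxp3* read. Within plates the P6- values went both ways. On plate 2, *Gzmb* was held by 2 of 3 Foxp3-high and 1 of 9 Foxp3-low P6- cells (log2 ratio 3.28), and on plate 9 by 2 of 3 and 0 of 11 (11.3). On plates 3, 7 and 8, only 1 Foxp3-low cell each held it, beside 5, 1 and 1 Foxp3-high cells without it, with ratios of -5.46, -6.54 and -4.04. On plates 4, 5 and 6 no P6- cell held it. The P6+ cells were all on plate 6, so their *Foxp3* comparison was within a single plate. The difference between the ratios of P6+ and P6- cells was not tested. Within Foxp3-low cells, P6+ over P6- gave a log2 ratio of 4.10, and within Foxp3-high cells one of 0.77. Without the top cell of each group, an alternative added after the data were seen, these were 4.28 and 1.64, so that within Foxp3-high cells *Gzmb* then passed 2-fold.

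Cell 23, the P6+ cell with the most *Gzmb* (8737 reads), also held 10 or more reads of *Cd79b*, a chain of the B cell receptor complex, as did P6+ cell 21, which had 1 *Gzmb* read. *Cd79b* had 2735 reads over all P6+ cells and 2 over all P6- cells, and its part in the *Gzmb* values was not tested. *Cd79a*, the other chain, was at 0 reads in both groups. Without these cells and 5 P6- cells that held a marker of CD8 T, NK or mast cells, the Foxp3-high to Foxp3-low log2 ratio in P6+ cells was 0.72, an alternative added after the data were seen. None of the 5 P6- cells held *Gzmb*.

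The P6+ cells were also split by reads of *Trbv13-2*, a V segment of the T cell receptor β chain. It had 48 or more reads in 16 cells and 0 or 1 in the other 16. *Gzmb* was held by 10 of the 16 cells with the segment (62.5%, 35.4 to 84.8%) and 4 of the 16 without it (25%, 7.27 to 52.4%), with overlapping intervals. Among Foxp3-low P6+ cells the counts were 5 of 7 with and 3 of 14 without the segment, and among Foxp3-high ones 5 of 9 and 1 of 2. Of P6- cells, 4 of 26 with *Trbv13-2* (15.4%) and 4 without it (3.88%) held *Gzmb*. P6+ cells with and without the segment also differed in other genes. The summed regulatory T cell markers had a median of 3155 cpm with and 1190 cpm without it. A cycling gene (*Mki67* or *Top2a*) was held by 6 cells with and 0 without it. The part of these genes in the *Gzmb* values was not tested. The study reports clonal expansion among the P6+ cells, and its most abundant clone carries this segment. Some of the P6+ cells with the segment are therefore clonal relatives and not independent draws, which the intervals do not take into account. Clones were not called here, so which of these cells belong together is not shown.

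*Gzma*, which encodes the tryptase granzyme A, was held by 2 of the 161 cells. P6+ cell 8 had 5678 reads and P6+ cell 13 had 1765, both Foxp3-low, and every other cell had at most 2. No P6- cell held it, which allows up to 2.33%. Cell 8 was also the P6+ cell with the second most *Gzmb*, at 7890 reads, while cell 13 had 4 *Gzmb* reads. *Gzmk*, which encodes granzyme K, had 0 reads in all 161 cells, which allows a share of up to 1.86%.

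*Prf1* was held by 1 cell. P6- cell 56, a Foxp3-low cell, had 5882 reads (2731 cpm), and the other 160 cells together had 10, with 1 read in the whole P6+ group. None of the 22 cells with *Gzmb* held *Prf1*, and cell 56 had 0 *Gzmb* reads. In P6+ cells, 0 of 32 allows a share of up to 9.38%. P6+ cell 22, with 1087 *Gzmb* reads, carried the 1 *Prf1* read of the P6+ group. At 10 reads of each, no cell held both genes, though transcripts that were not captured would be missed.

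*Srgn* was the most widely held member. All 32 P6+ cells held it, with 7.63 to 4900 cpm and a median of 2089, and 79.1% of P6- cells held it (71.03 to 85.7%). Over all P6- cells it ran from 0.43 to 10568 cpm with a median of 1438. The ranges overlapped, and the pooled log2 ratio was 0.30 over all P6- cells and 0.16 over those of the same plate. Its share was 78.9% in Foxp3-high and 79.1% in Foxp3-low P6- cells. Pooled levels were 2836 cpm in Foxp3-high and 2023 cpm in Foxp3-low P6+ cells, against 1909 and 1830 cpm in the P6- groups. None of these differences passed 2-fold.

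*Nkg7* was held by 8 of 32 P6+ cells (25%, 11.5 to 43.4%) at 173 to 1814 cpm, and by 6 P6- cells (4.65%, 1.73 to 9.85%) at 7 to 2788 cpm. By *Foxp3*, the P6+ cells with it were 2 of 11 and 6 of 21, and the P6- cells 1 of 19 and 5 of 110. The 1 Foxp3-high P6- cell had only 11 reads. Pooled, *Nkg7* was at 184 cpm in P6+ and 55.3 cpm in P6- cells, a log2 ratio of 1.72, and the ratio over the P6- cells of the same plate was 1.53 (63.1 cpm, nearly all of it from P6- cell 82). Foxp3-high P6- cells stood at 0.982 cpm and Foxp3-low ones at 64.5 cpm.

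*Ctsw* was held by 6 of 32 P6+ cells (18.8%, 7.21 to 36.4%) at 107.6 to 1707 cpm, and by 10 P6- cells (7.75%, 3.78 to 13.8%) at 65.5 to 4539 cpm. Pooled it stood at 203 cpm in P6+ and 95.8 cpm in P6- cells, a log2 ratio of 1.08. This was under 2-fold as a mean of the cells' cpm (0.84), thinned to 500000 reads (0.83) and without the top cell of each group (0.89). The other alternatives over P6- cells of all plates left it just past 2-fold. Over the P6- cells of the same plate the ratio was -1.14, since 2 of those 11 cells held 2146 and 4773 reads, so its direction depended on the P6- cells chosen. Shares were 2 of 11 and 4 of 21 in Foxp3-high and Foxp3-low P6+ cells, and 1 of 19 and 9 of 110 in the P6- groups. The only Foxp3-high P6- cell with *Ctsw*, P6- cell 88, was on the shared plate.

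**Figure D3:**
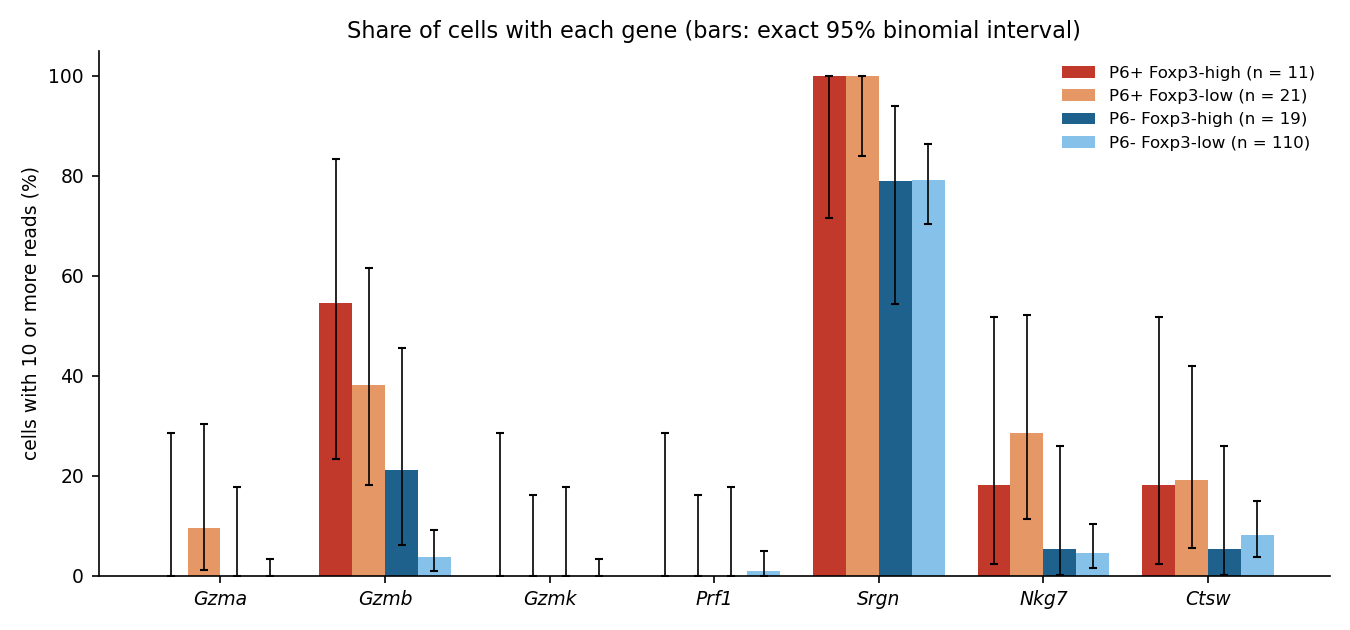
Percent of cells with 10 or more reads of each member in the 4 groups, with exact 95% binomial intervals that cover counting error only. *Srgn* is at 100% in both P6+ groups and near 79% in both P6- groups, *Gzmb* steps from 54.5% to 3.64%, and *Gzmk* is at 0 throughout.

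Levels of different genes were compared only per kilobase of exons, merged over all annotated transcripts of a gene. Pooled over P6+ cells, *Srgn* had 1035 cpm per kb, *Gzmb* 559, *Nkg7* 202, *Gzma* 124.8 and *Ctsw* 107.7, with *Prf1* at 0.00652. A single cell held 76.2% of these *Gzma* reads, and the place of *Gzma* above *Ctsw* rested on that cell. In P6- cells *Srgn* had 839 cpm per kb and *Gzmb* 93.3, followed by *Nkg7* at 60.5, *Ctsw* at 50.8 and *Prf1* at 11.2. Within the P6+ cells that held the gene, the median was 1005 cpm per kb for *Gzmb* and 951 for *Srgn*, so the median levels of the pair lay close together.

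Of the 7 members, 6 reached 20 pooled cpm in P6+ or P6- cells and could be counted against 2-fold. *Gzma*, *Gzmb*, *Nkg7* and *Ctsw* were past 2-fold higher in P6+ cells, *Prf1* was past 2-fold lower and *Srgn* was under 2-fold, with a median log2 ratio of 1.40. Of 7385 genes counted the same way, 51% were past 2-fold, 24.3% higher and 26.7% lower, with a median of 0.01. *Gzma* and *Prf1* reached the minimum only through the group in which they were high, and *Gzmb* was chosen on this contrast, so nothing is read from the count. Against the P6- cells of the same plate, 3 of 5 were higher, 1 lower and 1 under 2-fold. There 72.7% of 6809 genes were past 2-fold, 47.2% higher and 25.5% lower.

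Counted by *Foxp3*, 1 of 5 members was higher in Foxp3-high P6- cells (*Gzmb*), 2 were lower (*Prf1*, *Nkg7*) and 2 under 2-fold, beside 59.5% of 7132 genes past 2-fold, 25.6% higher and 33.8% lower. In P6+ cells, *Ctsw* was higher, *Gzma* lower and 3 were under 2-fold, beside 65% of 6825 genes, 27.2% higher and 37.8% lower. That direction of *Ctsw* turned to a log2 ratio of -0.88 when 50 *Foxp3* reads were required, since P6+ cell 26, with 22 *Foxp3* reads, then counted as Foxp3-low. *Nkg7* in P6+ cells, under 2-fold at -0.57, was at -2.55 without the top cell of each group, and under 2-fold in the other alternatives. Within Foxp3-high cells, P6+ over P6- put 2 of 4 members higher and 2 under 2-fold, beside 68% of 6638 genes past 2-fold, 31.4% higher and 36.6% lower. Within Foxp3-low cells 3 of 6 were higher, 1 lower and 2 under 2-fold, beside 57% of 7305 genes, 26.7% higher and 30.3% lower. With *Trbv13-2* over without, *Gzma* was higher and 4 of 5 were under 2-fold, beside 66.5% of 6830 genes, 33% higher and 33.5% lower. Most genes were past 2-fold in these comparisons. *Prf1* and *Nkg7* in P6- cells and *Gzma* in P6+ cells reached 20 cpm only through the group in which they were high, so nothing is read from these counts either.

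The members other than *Srgn* were partly found in the same cells. Of the 8 P6+ cells with *Nkg7*, 7 also held *Gzmb*, and of the 6 with *Ctsw*, 5 did. Both *Nkg7* and *Ctsw* were held by 3 P6+ cells, and all 3, cells 7, 9 and 18, held *Gzmb* too. In P6- cells, only 1 of 6 cells with *Nkg7* and 0 of 10 with *Ctsw* held *Gzmb*, while 3 cells held both *Nkg7* and *Ctsw*. Leaving *Srgn* aside, 15 of 32 P6+ cells held no member, 8 held 1, 5 held 2 and 4 held 3. Of P6- cells, 83.7% held no member, 17 cells held 1, 4 held 2 and 0 held 3.

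**Figure D4:**
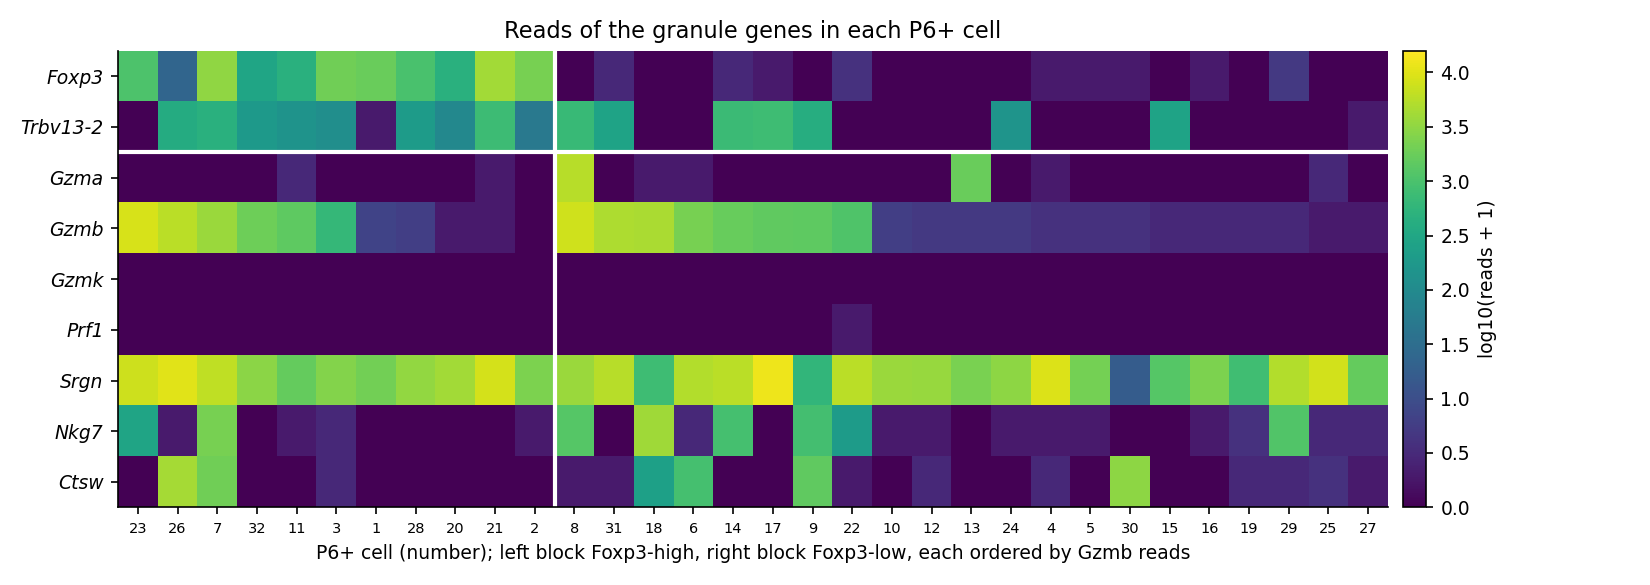
Reads of *Foxp3*, *Trbv13-2* and the 7 members in each of the 32 P6+ cells, as log10(reads + 1) in colour. The 11 Foxp3-high cells are on the left and the 21 Foxp3-low cells on the right, each block ordered by *Gzmb* reads, and *Nkg7* and *Ctsw* are high mostly in columns where *Gzmb* is high.

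Correlations over cells are given as descriptions, since the cells share plates and the groups above, and the P6+ cells 1 mouse. Over 161 cells, Pearson's r of log2(cpm + 1) was 0.35 between *Gzmb* and *Nkg7*, 0.37 between *Nkg7* and *Ctsw*, and 0.15 between *Gzmb* and *Ctsw*. Between *Gzmb* and *Nkg7* it was 0.51 in the 32 P6+ cells and 0.03 in the P6- cells. *Srgn* and *Ctsw* had an r of -0.42 in P6+ cells, where P6+ cell 30 combined the lowest *Srgn* (16 reads) with 3073 *Ctsw* reads.

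Among 5768 other genes held by at least 10 cells, the gene most like *Gzmb* was *Klrg1*, an inhibitory receptor of differentiated T and NK cells, with r = 0.78 over 161 cells. It was held by 29 cells, among them 20 of the 22 with *Gzmb*. In P6+ cells all 14 cells with *Gzmb* were among the 19 with *Klrg1*, and in P6- cells 6 of 8 were among the 10 with it, with r of 0.74 and 0.67. *Cmtm7* followed (r = 0.64, 20 of 22 cells), with 0.76 in P6+ and 0.44 in P6- cells. Then came *S100a6*, a calcium-binding protein gene (r = 0.58, 20 of 22 cells), with 0.59 and 0.37.

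*Klrg1* itself was held by 8 of 11 Foxp3-high and 11 of 21 Foxp3-low P6+ cells, and by 6 of 19 and 4 of 110 of the P6- cells. No P6- cell of the shared plate held it. With *Trbv13-2*, 14 of 16 P6+ cells held *Klrg1*, and without it 5 of 16. Over the 4 groups its shares stood in the same order as those of *Gzmb*.

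*Nkg7* was most like *Ccl5*, a chemokine gene of effector T cells (r = 0.66, 9 of 14 cells), with r of 0.53 in P6+ and 0.72 in P6- cells. *Wsb2* (0.39) and *Lag3*, an inhibitory receptor that binds MHC class II (0.36), followed. Their r was 0.75 and 0.39 in P6+ cells, but 0.10 and 0.15 in P6- cells, where each shared 1 cell with *Nkg7*. *Ctsw* was also most like *Ccl5* (0.40, 8 of 16 cells), with 0.39 in P6+ and 0.37 in P6- cells. *Mtmr12* (0.38) and the ubiquitin ligase gene *Ubr1* (0.34) came next, both at 0.58 in P6+ and 0.27 in P6- cells. *Srgn* had no close likeness, with the interferon-induced *Ifi27l2a* and *Itm2b* at 0.40 and the MHC class I gene *H2-K1* at 0.38. In P6+ cells these were 0.47, 0.08 and 0.25, and in P6- cells 0.36, 0.38 and 0.37. *Gzma*, *Gzmk* and *Prf1* were held by too few cells to be compared.

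Other genes of the granule pathway were followed through 48 names, of which 46 matched the table. Of these, 28 reached 20 cpm in P6+ or P6- cells, 9 past 2-fold higher in P6+, 6 lower and 13 under 2-fold, beside 24.3% of all genes higher and 26.7% lower. Of the 7 other granzymes, 0 reached 20 cpm. *Gzmc*, *Gzmd*, *Gzme*, *Gzmf* and *Gzmg*, neighbours of *Gzmb* on chromosome 14, had 0 reads in all passing cells and *Gzmn* had 1, so *Gzmb* was the only gene of its cluster that was held by any cell. *Gzmm* was held by 1 P6+ cell with 577 reads.

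Genes that process or restrain granule proteases varied in direction. Of 9, 6 reached 20 cpm, with 2 higher in P6+ cells and 4 lower (median log2 ratio -1.75), beside 24.3% and 26.7% of all genes. Against the P6- cells of the shared plate 4 reached 20 cpm, 2 higher and 2 lower, and the median turned to 0.19, beside 47.2% and 25.5% of all genes. *Ctsc*, the protease that trims granzymes to their active form, was at 70.7 cpm in P6+ and 312 cpm in P6- cells and held by 12.5% and 9.30% of the cells. *Cst7*, an inhibitor of cathepsins, was at 128.7 and 50.5 cpm. *Serpinb9*, the inhibitor of granzyme B, was held by 6.25% of P6+ and 4.65% of P6- cells, at 29.98 and 78.9 cpm. *Serpinb6a* was held by 3.12% of P6+ and 12.4% of P6- cells, at 7.75 and 41.4 cpm, and *Serpinb9b* had 0 reads in both groups.

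*Serpina3g*, which encodes a serpin, was held by 31.2% of P6+ and 1.55% of P6- cells, with a log2 ratio of 3.56. Its shares were 5 of 11 and 5 of 21 in Foxp3-high and Foxp3-low P6+ cells, 2 of 19 in Foxp3-high P6- cells, and 0 of 110 in Foxp3-low P6- cells, which allows up to 2.73%. *Serpinb6b*, an inhibitor of granzyme A, was at 0.118 cpm in P6+ and 120 cpm in P6- cells, and was held by 4.65% of P6- cells and 0 P6+ cells. On the shared plate it was at 0.518 cpm in P6- cells, held by 0 of the 11, and did not reach 20 cpm.

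Of 12 genes for the sorting and release of granules, 4 were past 2-fold higher in P6+ cells, 0 lower and 8 under 2-fold, with a median log2 ratio of 0.14. The share of all genes past 2-fold was 51%. The mannose 6-phosphate receptor *M6pr*, which carries granzymes to granules, was held by 59.4% of P6+ and 25.6% of P6- cells (log2 ratio 1.20). *Rab27a* and *Unc13d*, which dock and prime granules, had log2 ratios of 1.67 and 3.31, and the fusion gene *Stx11* one of 1.35. *Rab27a* was held by 28.1% of P6+ and 4.65% of P6- cells and *Stx11* by 50% and 17.8%. *Stxbp2*, the partner of syntaxin 11, was at 179 and 169 cpm, and *Igf2r*, *Lamp1*, *Ap3b1*, *Vamp8* and *Calr* were also under 2-fold.

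On the shared plate, 2 of these 12 were higher in P6+ cells and 5 lower, with a median log2 ratio of -0.72, where 47.2% of all genes were higher and 25.5% lower with a median of 0.73. *Rab27a* and *Unc13d* were also higher there, both held by 0 of the 11 P6- cells, while *Igf2r*, *Lamp2*, *Stxbp2*, *Lyst* and *Ap3b1* were lower in pooled level in P6+ cells. Shares of cells with *Igf2r*, *Lamp2* and *Stxbp2* were not lower, at 21.9%, 12.5% and 28.1% of P6+ and 18.2%, 9.09% and 27.3% of the 11 P6- cells, and the P6- level of *Lamp2* came nearly all from 1 cell. *Lyst* was held by 3.12% and 27.3%, and *Ap3b1* by 25% and 27.3%. *M6pr* was held by 5 and *Stx11* by 4 of the 11, and both were under 2-fold. By *Foxp3*, 3 of 11 were higher in Foxp3-high P6- cells and 3 lower (all genes, 25.6% and 33.8%). In P6+ cells (all genes, 27.2% and 37.8%) 2 of 12 were higher, *Vamp8* (8 of 11 against 8 of 21 cells) and *Calr* (6 of 11 against 5 of 21), and 4 lower.

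Of 7 other killing and effector genes, 2 reached 20 cpm, 1 of them lower in P6+ cells (*Fasl*) and 1 under 2-fold (*Ccl5*), beside 24.3% of all genes higher and 26.7% lower. *Fasl*, the ligand of the death receptor Fas, was held by 12 of 110 Foxp3-low P6- cells at up to 9067 reads and by no cell of the other 3 groups, which allows up to 9.38% of P6+ cells. *Ifng* was held by 3.10% of P6- cells and 0 P6+ cells, and *Ccl3* and *Crtam* had 0 reads. *Ccl5*, a chemokine of activated T cells, was held by 31.2% of P6+ cells, 6 of 11 Foxp3-high and 4 of 21 Foxp3-low, and by 4.65% of P6- cells, with a log2 ratio of 0.72. Over the P6- cells of the shared plate, 1 of which held it, the ratio was 3.03, past 2-fold, while *Fasl* was lower in P6+ cells there too, through the 1 P6- cell that held it, beside 47.2% of all genes higher and 25.5% lower.

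Of 11 transcription factors, 8 reached 20 cpm, and 3 were past 2-fold higher in P6+ cells, 1 lower and 4 under 2-fold (median log2 ratio 0.91), again beside 51% of all genes past 2-fold. On the shared plate 7 reached 20 cpm, with 4 higher, 1 lower and 2 under 2-fold and a median of 1.65, beside 72.7% of all genes past 2-fold. *Batf*, an AP-1 family factor of effector and regulatory T cells, was held by 43.8% of P6+ and 13.2% of P6- cells, at 383 and 162 cpm. It stood at 853 cpm in Foxp3-high and 175 cpm in Foxp3-low P6+ cells, and 1 cell held 60.3% of the former. *Runx3*, a factor of cytotoxic lineages, was held by 21.9% and 9.30% (log2 ratio 1.47).

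*Tbx21*, which encodes T-bet, was held by 9.38% of P6+ and 2.33% of P6- cells. Its log2 ratio was 0.90 over all P6- cells and 6.58 over those of the shared plate, where none held it. *Eomes*, its relative in cytotoxic cells, was held by 0 P6+ cells and 1.55% of P6- cells, and it was the 1 lower gene of the list on the shared plate, through 1 P6- cell. *Zeb2* had a log2 ratio of 4.84 from 2 P6+ cells and 1 P6- cell. *Irf4* was held by 3.10% of P6- cells and 0 P6+ cells, and had 0 reads in the P6- cells of the shared plate. *Id2*, *Bhlhe40* and *Prdm1* were under 2-fold, and *Hopx*, held by 6 of 19 Foxp3-high P6- cells, did not reach 20 cpm.

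**Figure D5:**
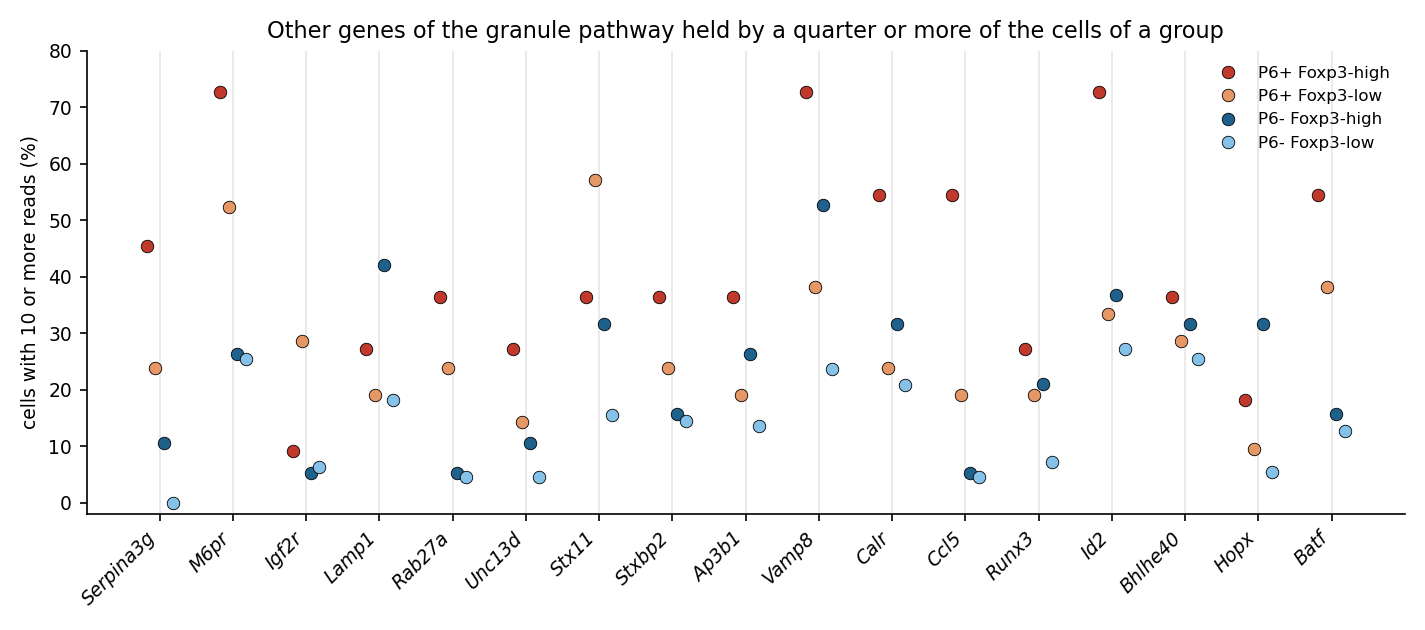
Percent of cells with 10 or more reads of the 17 pathway genes that reached 25% of the cells in at least 1 of the 4 groups. Points are the groups, drawn without intervals, and *Serpina3g*, *M6pr*, *Rab27a*, *Ccl5* and *Batf* are higher in both P6+ groups than in both P6- groups.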

How the data were processed

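Single CD4 T cells were index sorted and sequenced by Smart-Seq2. Per the methods and the processing notes, the authors mapped reads with STAR 2.6.0a to GRCm38 (Ensembl) and deposited a table of counts, whole reads for each gene in each cell without normalization, and a table of each cell's tetramer sign. The tools FastQC 0.11.7 and SAMtools 0.1.19 were also named. Whether the counting used strand was not given in the sources used here. How reads in the overlap of *Ctsw* and *Fibp* were counted is thus not known. The same holds for *Gzmk* and *Esm1*, though *Gzmk* had 0 reads in all 161 passing cells.

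From the deposited counts, rows of 81 repeated names were replaced by their average, which the study's methods also did. Cells were kept at 500000 reads, 2000 genes and under 10% of reads on 37 mitochondrial genes. The mapping rate, on which the study also filtered and kept fewer P6- cells, was not used here. Values of P6- cells thus include cells that the study left out, and no alternative used the mapping rate. All 32 P6+ cells were kept in both. Reads of a group were summed and divided by its total (cpm), and log2 ratios used a pseudocount of 1 cpm. A gene entered a count of genes past 2-fold at 20 cpm in the higher group, and a cell held a gene at 10 reads. Intervals are exact (Poisson, Clopper-Pearson) at 95%, and a count of 0 allows 3 counts. Each group is 1 sample, so no test, SE or p-value is given, and no doublet caller was run on single-cell wells. No columns of 2 cells were identical. One marker of the sort and of the marker lists is not reported here.

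The 7 members, the pathway and marker lists, the *Trbv13-2* split and the motifs were chosen with earlier results of these data known. Named were the 7 members and every pathway gene held by 25% of the cells of a group. Inhibitors, an activating protease and receptors were also named, with the 3 genes most like each member that 10 or more cells held. *Fasl*, *Ifng*, *Ccl3*, *Crtam*, *Tbx21*, *Eomes*, *Irf4*, *Zeb2*, *Prdm1*, *Lamp2*, *Lyst*, *Serpinb6a*, *Serpinb9b* and the other granzymes were added after their values were seen. The arithmetic of pooled ratios was checked on simulated counts of 53546 genes for P6+ over P6- and both Foxp3 comparisons. In each, 200 of 200 changed genes had the right direction. Simulated cells of a group varied only by Poisson error around the same mean. The check therefore says nothing of genes held by few cells, such as most members. Alternatives changed cell limits, pooling, depth, normalization (edgeR 4.0.16 TMM, DESeq2 1.42.0 size factors, on pooled sums without a test), pseudocount, thresholds and the P6- cells used. Python 3.11.15, pandas 2.3.3, scipy 1.17.1 and R 4.3.3 were used.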

Additional observations from a re-analysis of the deposited data

Results flagged for a closer look

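*Ctsw* differed in direction by tetramer binding. The log2 ratio of pooled cpm, Foxp3-high over Foxp3-low, was 1.31 in P6+ cells (348 against 139.4 cpm) and -0.45 in P6- cells (72.7 against 99.8 cpm). Shares of cells with the gene were 2 of 11 and 4 of 21 in P6+, and 1 of 19 and 9 of 110 in P6- cells. The difference between the ratios was not tested. P6+ cell 26, with 22 *Foxp3* reads and 4367 *Ctsw* reads, held 69.1% of the reads of the Foxp3-high P6+ group, and the P6+ ratio was -0.88 when 50 *Foxp3* reads were required. That ratio was 0.70 as a mean of the cells' cpm, 0.79 thinned and 0.86 without the top cell of each group, and past 2-fold under the other alternatives. P6- cell 88 held nearly all *Ctsw* reads of the Foxp3-high P6- group (2146 of 2147), and the P6- ratio was -6.15 without the top cell of each group, -1.97 at 1 *Foxp3* read and -1.32 as a mean of the cells' cpm or with cells thinned to 500000 reads.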

How the results depend on the processing

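No paired analysis was possible because the replicate numbers only count cells in accession order and pair no cells across groups. With every group a single sample, the alternatives move values and no test. The share of P6+ and P6- cells with *Gzmb* was 96.9% and 34.9% at 1 read, and 0% in P6- cells of the same plate. The log2 ratio of *Gzmb* in P6+ over P6- cells was 2.57 in the report. It was 2.65 without limits on cells, 2.43 at 1000000 reads, 2.28 as a mean of the cells' cpm, 2.27 thinned to 500000 reads, 2.54 with TMM factors, 3.31 without the top cell of each group, 2.50 with a pseudocount of 10 cpm, 8.99 over the same plate and 2.35 without cells holding markers of another type (added after the data were seen). The Foxp3-high over Foxp3-low ratio of *Gzmb* in P6- cells, 4.33, was in the same order 4.41, 4.29, 4.42, 4.42, 4.32, 3.50 and 4.02 up to the pseudocount, with 4.43 by DESeq2 size factors and 2.90 at 1 *Foxp3* read. In P6+ cells the ratio of 0.996 was 0.96 as a mean of cpm, 0.95 thinned, 0.97 with TMM factors, 0.85 without the top cells, 0.34 at 1 and 0.55 at 50 *Foxp3* reads, and 0.72 without cells holding other markers. Genes past 2-fold in P6+ over P6- numbered 3769, with 6868 when no minimum of cpm was set and 1950 at 4-fold, and by *Foxp3* in P6- cells 4242, 7266 and 2660. *Gzmb* kept its direction in all of these, but among P6- cells of single plates its ratio by *Foxp3*, added after the data were seen, ran from -6.54 to 11.3. Of the other members, *Prf1* in P6+ over P6- was 0.0241 on the same plate, where neither group held it, *Ctsw* was -1.14 there, and *Ctsw* by *Foxp3* in P6+ cells was -0.88 at 50 reads. Of 177 values of the 5 other members with reads under alternatives, 7 changed sign, namely these 3, *Srgn* by *Foxp3* in P6- cells (0.06 in the report, -0.28 without the top cells, -0.08 at 1 and -0.0088 at 50 *Foxp3* reads), and *Gzma* in the same comparison (-0.06, and 0.06 at 1 read), both far under 2-fold. The 11 P6- cells on the shared plate limit what can be said of tetramer binding apart from plate, and 11 to 21 cells a group leave wide intervals. The cause of these shifts was not tested.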
